A study of Mus musculus with 28 samples.

Results

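Mouse embryonic stem (ES) cells that lack Dicer were given either DICER1 carrying the E1813Q substitution or wild-type DICER1, and their mRNA was compared. Members were chosen by title and vector: the 2 arrays of Dicer-/- ES cells with the DICER1 E1813Q transgene and the 2 arrays, numbered 5 and 6, of Dicer-/- ES cells with the wild-type DICER1 transgene, all in the vector pLD-puro-PGKnvA. These are 4 of the 28 arrays of the series. The remaining arrays held other DICER1 hotspot mutants, wild-type DICER1 or eGFP in the vector pLD-puro-ENvA, Dicer-/- and Dicer+/+ ES cells with no vector, and 2 arrays of the D1709N mutant, the only other mutant in pLD-puro-PGKnvA. Both compared groups share the Dicer-/- genotype, ES cell medium and collection in log-phase growth. The labels do not say whether a transgene group is 1 clone or a pool of transduced cells, nor from which species the DICER1 transgenes come. They also do not say that the 2 arrays of a group came from separate cultures, and the p-values below then cover only array-to-array spread, possibly of technical origin.

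DICER1 is the enzyme that cuts hairpin miRNA precursors into mature miRNAs. Its RNase IIIb domain cuts the 5′ arm of the hairpin, and its RNase IIIa domain cuts the 3′ arm. E1813 is a metal-binding residue of the RNase IIIb catalytic site and a recurrent site of somatic mutation in DICER1 tumours. In mouse ES cells the abundant miRNAs of the miR-290, miR-302 and miR-17 families share a closely related seed, the bases that pair with target mRNAs, and are known to promote rapid cycling and limit targets such as Lefty genes, Lats2 and Rbl2, whereas let-7 opposes the Lin28 and Myc genes.

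The mature sequences below belong to hairpins of the clusters and seed families described with the miRNA values, and are grouped by seed to show which hairpins that moved in opposite directions share one. Sequences and positions are from RefSeq on GRCm38.p6, are written 5′ to 3′, and have the seed, bases 2 to 8, in capitals. The hairpins named here were chosen after their values were seen.
mmu-miR-17-5p: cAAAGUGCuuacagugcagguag
mmu-miR-20a-5p: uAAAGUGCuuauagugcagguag
mmu-miR-20b-5p: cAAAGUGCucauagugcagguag
mmu-miR-106a-5p: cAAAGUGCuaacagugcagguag
mmu-miR-18a-5p: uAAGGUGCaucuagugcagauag
mmu-miR-302b-3p: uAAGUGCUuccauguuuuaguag
mmu-miR-302d-3p: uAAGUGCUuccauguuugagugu
mmu-miR-302c-3p: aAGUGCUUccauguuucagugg
mmu-miR-19a-3p: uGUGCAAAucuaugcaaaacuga
mmu-miR-19b-3p: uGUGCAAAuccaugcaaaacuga
mmu-miR-363-3p: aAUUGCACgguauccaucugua
mmu-miR-367-3p: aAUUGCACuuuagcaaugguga
mmu-let-7d-5p: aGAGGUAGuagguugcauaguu
mmu-let-7f-5p: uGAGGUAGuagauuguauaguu
mmu-miR-98-5p: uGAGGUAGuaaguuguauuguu
mmu-miR-30e-5p: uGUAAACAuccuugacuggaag
The miR-17, miR-20a, miR-20b and miR-106a strands printed here lie on the 5′ arm of their hairpins and those of miR-302b, miR-302c, miR-302d, miR-363 and miR-367 on the 3′ arm. An example of each kind of hairpin is printed with both mature strands in capitals, because the arms are cut by different domains of the enzyme. Mir20a lies at chr14:115044157-115044263 on the plus strand and Mir302b at chr3:127545228-127545301 on the plus strand.
Mir20a: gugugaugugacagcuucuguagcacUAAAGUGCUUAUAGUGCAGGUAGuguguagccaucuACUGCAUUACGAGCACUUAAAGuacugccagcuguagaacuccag
Mir302b: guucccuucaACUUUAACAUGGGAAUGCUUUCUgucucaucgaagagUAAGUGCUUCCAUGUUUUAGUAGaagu

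Levels are the deposited log2 values per probe set, and a difference of 1 is a change of 2-fold. Array medians of the PGKnvA arrays lay between 7.22 and 7.26. Over the tested genes, the median absolute difference between arrays was 0.0526 for the wild-type pair and 0.0877 for the E1813Q pair. Between the groups it was 0.185 to 0.187. The deposited values obey exact relations across arrays. The mean of the 2 wild-type PGKnvA arrays equals that of the 4 wild-type ENvA arrays within 7.5e-05 for every probe set, so the wild-type level used here is the same in both vectors, and the sources used here do not give the step that produced this. The E1813Q and D1709N arrays carry a weight of at most 4.4e-07 in these relations. All 10 ES cell markers examined lay above the level of 6.42 below which genes were left out, and their mean was 11.69 and 11.70 in the E1813Q arrays and 11.72 and 11.71 in the wild-type arrays. Of 10 fibroblast or feeder markers, 6 lay above that level, 0 were higher and 1, Twist1, was lower in E1813Q, and their mean level was 6.66 and 6.71 against 6.76 and 6.75. Col1a1 read 8.25 and 8.52 in E1813Q against 8.40 and 8.41, Postn read 6.15 and 6.19 against 7.195 and 7.225, and Lum and Fap read between 3.94 and 4.73 in all 4 arrays. The part of such cells in the results was not tested.

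Dicer1 itself was examined before any other gene. Its mouse probe set read 8.97 and 9.01 in the E1813Q arrays and 9.30 and 9.32 in the wild-type arrays. The difference was -0.32 (SE 0.0748, adjusted p = 0.00133, limma), and the groups did not overlap. The 3 eGFP arrays, whose cells carry no DICER1 transgene, read 9.39 ± 0.10 (SD, n = 3), and the D1709N arrays read 8.97 and 8.84. The probe set therefore gives no check of which transgene a sample holds, and whether it reads the transgene or the remaining mouse transcript is not given.

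The cells with E1813Q differed from cells with wild-type DICER1 in many genes, mostly by small amounts. Of 13956 genes tested, 5661 were called at an adjusted p under 0.05 with limma, which is 40.6%. E1813Q was higher for 2942 of them (21.1%) and lower for 2719 (19.5%). This balance turned when each array was centred on its median, with 2480 higher and 3066 lower, and with the stricter filter at the 50th percentile, with 2438 and 2529. Without E1813Q array 2 it was 2232 and 2248. A difference of at least 2-fold was found for 120 genes (0.86%), of which 80 were higher (0.573%) and 40 lower (0.287%). The median difference over all tested genes was 0.00845, and the lower and upper quartiles were -0.16 and 0.186. An unadjusted p under 0.05 was found for 6638 genes (47.6%). Both E1813Q arrays lay above both wild-type arrays for 5275 genes (37.8%) and below both for 4875 (34.9%). Such separation held for 2941 of the 2942 genes called higher and 2714 of the 2719 called lower. Lack of overlap, given for genes below, is thus nearly fixed by the call and is no further support for it. With E1813Q array 1 or 2 or wild-type array 5 or 6 left out in turn, between 4193 and 4667 genes were called.

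**Figure D1:**
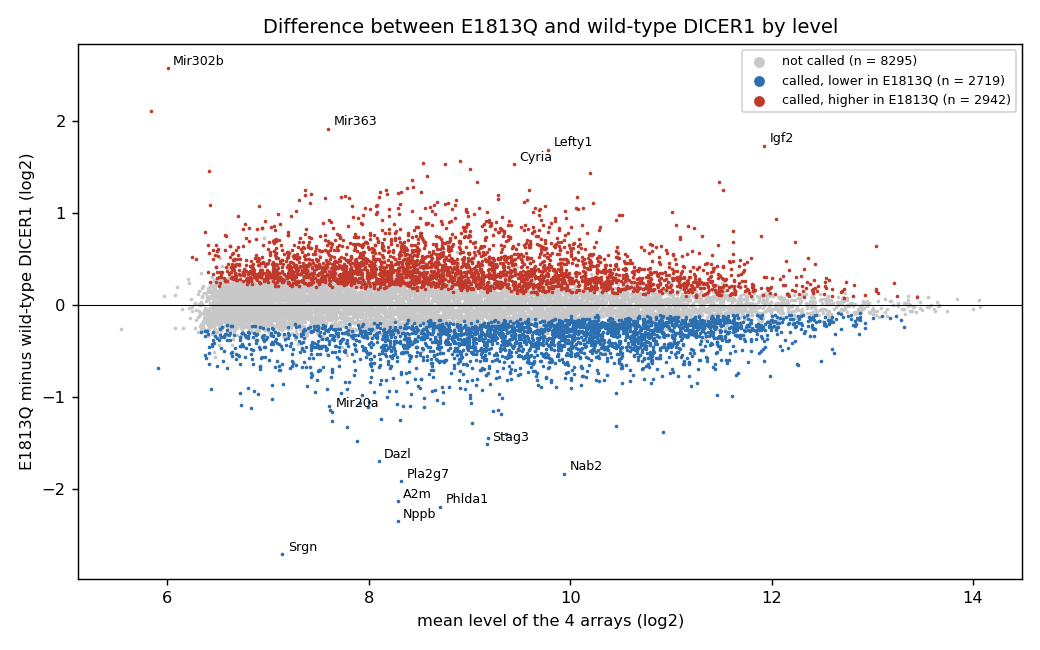
Difference in log2 level between E1813Q and wild-type DICER1 (vertical axis) against the mean log2 level of the 4 arrays (horizontal axis), 1 point per tested gene. Red points are the 2942 genes called higher and blue points the 2719 called lower, and most lie within 1 log2 unit of the line at 0.

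The largest rises included the secreted proteins Igf2, Lefty1 and Csf1 and the transcription factors Neurod1 and Myb. Igf2, the imprinted fetal growth factor, read 12.76 and 12.83 in the E1813Q arrays against 11.10 and 11.02 in the wild-type arrays. That was a rise of 3.33-fold (log2 1.74, SE 0.164, adjusted p = 9.72e-09, limma). Lefty1, a secreted inhibitor of Nodal signalling, read 10.63 and 10.62 against 8.90 and 8.97, a rise of 3.23-fold (log2 1.69, SE 0.159, adjusted p = 9.47e-09). The arrays within each group differed by less than 0.1 for both genes, far less than the distance between the groups.

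Csf1, the macrophage colony-stimulating factor, read 9.28 in both E1813Q arrays and 7.85 and 7.89 in the wild-type arrays, a rise of 2.65-fold (log2 1.41, SE 0.104, adjusted p = 2.12e-10). Wls, which carries WNT proteins to the cell surface, read 9.89 and 9.61 against 8.32 and 8.21, a rise of 1.48 log2 (SE 0.192). Neurod1, a neuronal basic helix-loop-helix factor, read 9.54 and 9.52 against 8.05 and 7.94, a rise of 1.53 log2 (SE 0.161). These genes also did not overlap between the groups. Myb, a transcription factor of blood progenitors, read 9.90 and 9.60 against 8.51 and 8.31, a rise of 1.34 log2 (SE 0.122). Pmp22, a membrane protein of myelin, read 12.13 and 12.16 against 10.85 and 10.76, a rise of 1.34 log2 (SE 0.232, adjusted p = 5.44e-05). The other 5 of the 12 largest rises, between 1.29 and 1.56 log2, were Fndc3c1, which encodes a fibronectin type III domain protein, Dapp1, an adaptor that binds phosphoinositides, Cyria, a regulator of the actin cytoskeleton that binds RAC1, Etfbkmt, a mitochondrial protein methyltransferase, and Proser3.

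The 12 largest falls were Srgn, Nppb, Phlda1, A2m, Pla2g7, Nab2, Dazl, Stag3, Cyct, Vamp7, Plaur and Hmox1. Srgn, the granule proteoglycan serglycin, read 5.98 and 5.59 in the E1813Q arrays and 8.52 and 8.48 in the wild-type arrays (adjusted p = 4.88e-10, limma). No size of change is given for it, nor for other genes with a group mean below 6.42, since the deposited table holds no background level. Nppb, the natriuretic peptide BNP, read 7.13 and 7.09 against 9.42 and 9.51, which was 5.12-fold lower (log2 -2.36, SE 0.102, adjusted p = 2.13e-14). The E1813Q arrays lay below the wild-type arrays without overlap for both genes.

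Phlda1, a gene induced by growth factor signalling, read 7.72 and 7.51 against 9.80 and 9.82 and was 4.58-fold lower (log2 -2.20, SE 0.156). A2m, the protease inhibitor alpha-2-macroglobulin, read 7.17 and 7.26 against 9.36 and 9.35 and was 4.40-fold lower (log2 -2.14, SE 0.205). Nab2, a corepressor of EGR factors, read 9.03 and 9.02 against 10.85 and 10.87 and was 3.57-fold lower (log2 -1.84, SE 0.122). No array of E1813Q reached the lowest wild-type array for these genes. Pla2g7, which breaks down platelet-activating factor, read 7.56 and 7.17 against 9.31 and 9.26, and in the eGFP arrays 11.71 ± 0.06 (SD, n = 3), above both groups. Hmox1, heme oxygenase, read 10.21 and 10.24 against 11.61 and 11.62, a difference of -1.38 (SE 0.166). The remaining 5 differed by -1.40 to -1.70 and were Dazl, an RNA-binding protein of germ cells, Stag3, a meiotic cohesin subunit, Cyct, the testis cytochrome c, Vamp7, a vesicle fusion protein, and Plaur, the urokinase receptor.

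**Figure D2:**
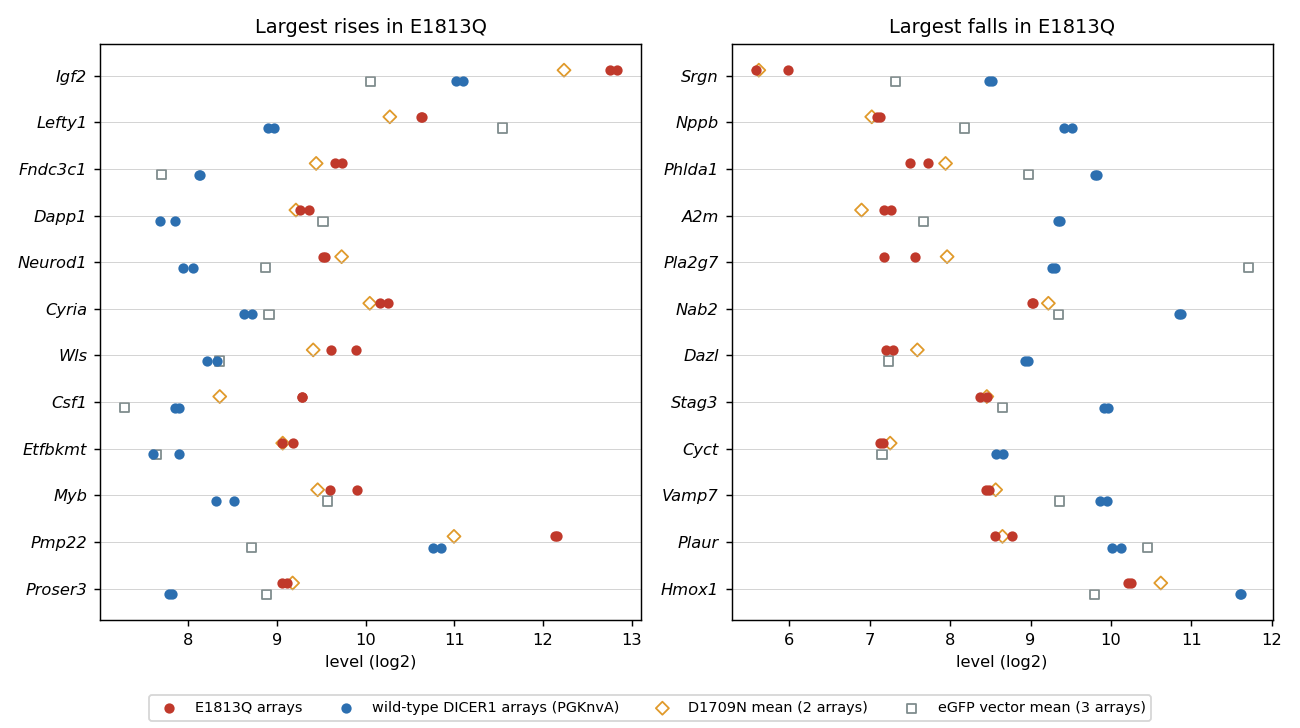
Log2 levels of the 12 largest rises (left) and 12 largest falls (right). Red dots are the 2 E1813Q arrays and blue dots the 2 wild-type arrays in PGKnvA, open diamonds the mean of 2 D1709N arrays and open squares the mean of 3 eGFP arrays in the other vector; for every gene the red and blue dots do not overlap.

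The D1709N arrays share their wild-type controls with E1813Q, so the fold changes of the mutants are not independent. Side by side, D1709N differed from the same wild-type arrays by 1.18 for Igf2, 1.34 for Lefty1, 1.73 for Neurod1 and 0.48 for Csf1. It differed by -2.44 for Nppb, -1.87 for Phlda1, -2.46 for A2m and -1.64 for Nab2. The direct test between the mutants is given at the end.

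Most miRNA hairpin probe sets were not called, and a few clusters held most of the clearest differences, in both directions. The array reads RNA that contains the hairpin sequence and does not separate mature miRNA from its precursors. Of 296 hairpin symbols with a probe set, 24 were called higher and 21 lower with limma, and the median difference was -0.0218. In the same fit, which kept genes of low level, 29.7% of all 19938 symbols were called, 15.1% higher and 14.6% lower. Only 110 of the 296 lay above the level of 6.42, with 5 called higher and 13 lower. The hairpins of the miR-290 to miR-295 cluster were not analysed here.

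All 5 hairpins of the Mir17 to Mir19b-1 cluster, which encodes the growth-promoting miR-17 family and its neighbours, were lower in E1813Q, with a median of -1.04. Mir20a read 7.07 and 7.03 in the E1813Q arrays and 8.20 and 8.18 in the wild-type arrays, a difference of -1.14 (SE 0.131, adjusted p = 1.85e-07). Mir19a read 7.78 and 7.80 against 8.82 and 8.98, a difference of -1.10 (SE 0.115), and Mir19b-1 read 8.19 and 8.13 against 9.25 and 9.14, a difference of -1.04 (SE 0.114). The smaller differences were -0.66 (SE 0.136) for Mir17 and -0.56 (SE 0.0997) for Mir18. Neither array of E1813Q reached a wild-type array for any of the 5. Their host transcript Mir17hg was lower as well, with 8.84 and 8.86 against 9.38 and 9.70, a difference of -0.69 (SE 0.0917, adjusted p = 1.9e-06). The strand printed above is the 5p strand for Mir17, Mir18 and Mir20a and the 3p strand for Mir19a and Mir19b-1. The probe sets do not tell the strands of a hairpin apart, and a difference between the arms was not tested.

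The Mir302b to Mir367 cluster, known for its expression in early embryonic cells, was higher in E1813Q for 5 of 5 hairpins. Mir302b read 7.32 and 7.27 in the E1813Q arrays and 4.90 and 4.53 in the wild-type arrays (adjusted p = 1.14e-06). Mir302a read 7.13 and 7.11 against 4.75 and 4.84, and Mir302c read 6.998 and 6.79 against 4.78 and 4.77. Mir302d read 7.10 and 7.196 against 5.91 and 5.45. Mir302a to Mir302d thus stood above 6.42 in both E1813Q arrays and below it in both wild-type arrays. Mir367 read 5.42 and 4.98 against 3.86 and 4.24 (adjusted p = 0.00422), all below that level. Its adjusted p became 0.0679 without E1813Q array 1 and 0.067 without wild-type array 5. The mean of the eGFP arrays was 7.61 for Mir302b and 6.88 for Mir302a.

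Mir363, whose printed strand shares its seed with miR-367, read 8.55 and 8.57 in the E1813Q arrays and 6.62 and 6.66 in the wild-type arrays, a rise of 3.79-fold (log2 1.92, SE 0.136, adjusted p = 7.81e-11). The eGFP mean was 6.72, near the wild-type level, and D1709N read 8.22 and 8.10. Its cluster neighbours Mir20b, at 6.11 and 6.09 against 5.35 and 5.34, and Mir106a, at 6.82 and 6.72 against 6.12 and 6.11, were also called higher. In this cluster, 3 of 5 hairpins were called higher and 0 lower. Mir20b and Mir106a carry the same seed, AAAGUGC, as Mir17 and Mir20a, which were lower.

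Among hairpins of the let-7 seed, Mirlet7f-1 read 6.04 and 5.72 in the E1813Q arrays and 6.84 and 7.07 in the wild-type arrays (adjusted p = 2.41e-05). Mir98 read 6.54 and 6.00 against 7.48 and 7.30 (adjusted p = 1.47e-06). Both were lower in each E1813Q array than in each wild-type array. Not every let-7 hairpin was called. In the cluster that holds Mirlet7f-1 and Mirlet7d, 2 of 3 hairpins were called lower. The third, Mirlet7a-1, read 6.178 and 6.085 against 6.244 and 6.076 and was not called (adjusted p = 0.89). Mirlet7i read 7.33 and 7.106 against 7.586 and 7.401 and was also not called (adjusted p = 0.108). Mirlet7d read 8.70 and 8.47 against 9.01 and 8.94 (log2 -0.39, SE 0.114, adjusted p = 0.0098). Its adjusted p became 0.154 without E1813Q array 2 (log2 -0.28) and 0.081 without wild-type array 5 (log2 -0.35). Mir30e, of another seed, read 6.61 and 6.44 against 7.52 and 7.59, a difference of -1.03 (SE 0.109, adjusted p = 5.53e-08).

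**Figure D3:**
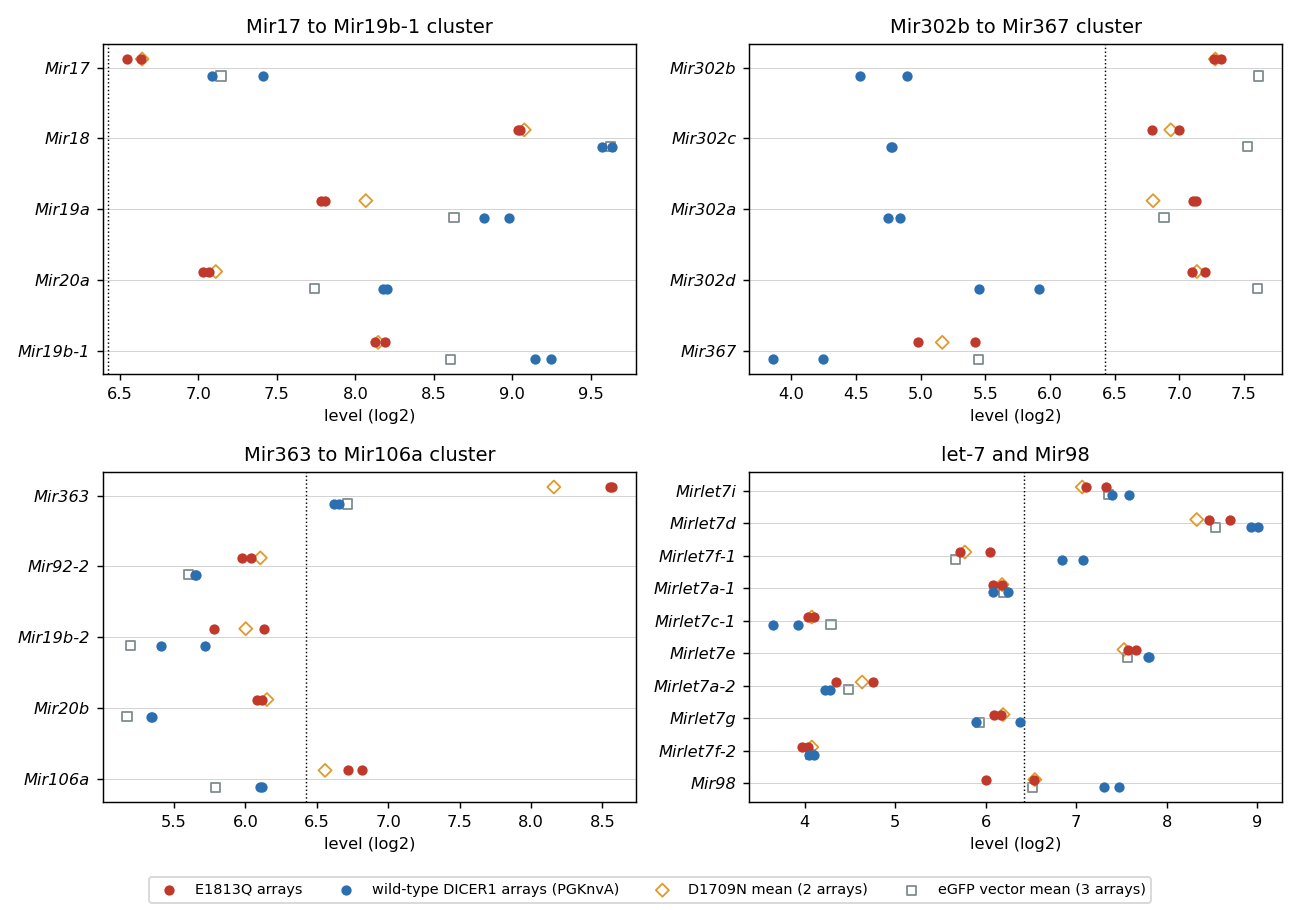
Log2 levels of hairpin probe sets in 4 sets. Red dots are the E1813Q arrays, blue dots the wild-type PGKnvA arrays, open diamonds the D1709N mean and open squares the eGFP mean, and the dotted line marks the level of 6.42; the red dots lie left of the blue in all 5 rows of the Mir17 to Mir19b-1 panel and right of them in all 5 rows of the Mir302b to Mir367 panel.

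Reported targets shared by the miR-290 and miR-302 families were more often higher than lower. Of 22 tested, 11 were called higher and 3 lower, and their median was 0.16 beside 0.00845 for all genes. This count, like those of all lists below, stands beside 21.1% of all tested genes called higher and 19.5% lower. Beyond Lefty1, the Nodal antagonist Lefty2 read 8.93 and 8.94 against 7.78 and 7.63 (log2 1.23, SE 0.0944). Irf2, an interferon regulatory factor, read 7.62 and 7.54 against 6.70 and 6.94 (log2 0.76, SE 0.128), and Lats2, a kinase of the Hippo pathway, read 8.55 and 8.50 against 7.96 and 7.94 (log2 0.58, SE 0.0927). The E1813Q arrays were higher without overlap for each of them. In the other direction, Arid4b, a chromatin regulator, read 9.63 and 9.34 against 10.15 and 10.05 (log2 -0.62, SE 0.129), and the transcription factor Sp1 differed by -0.44 (SE 0.0471). Rbl2, a pocket protein and a reported target in this family, differed by -0.03 and was not called. With any of the 4 compared arrays left out, 8 or 9 members were called higher and 2 lower.

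Reported let-7 targets, and those of miR-17 with miR-106, were called in both directions, beside 21.1% of all genes higher and 19.5% lower. Of 20 let-7 targets, 6 were called higher and 5 lower, with a median of 0.05. Ccnd1, a D-type cyclin, read 11.58 and 11.72 against 10.80 and 10.83 (log2 0.83, SE 0.0926, adjusted p = 1.17e-07). Its relative Ccnd2 read 9.22 and 9.27 against 8.56 and 8.54 (log2 0.69, SE 0.138). Hmga2, a chromatin architectural protein, differed by 0.60 (SE 0.0804), Lin28a, which blocks let-7 maturation, by 0.46 (SE 0.104), and its paralog Lin28b by 0.37 (SE 0.0784). Falls were found for Trim71, an RNA-binding protein of stem cells (log2 -0.43, SE 0.0965), Tgfbr1, a TGF-beta receptor (log2 -0.42, SE 0.064), and Nras, a RAS GTPase (log2 -0.31, SE 0.0634). Of 19 genes in the miR-17 list, 6 were called higher and 2 lower, with a median of 0.03. They included Ccnd1, Ccnd2, Tgfbr2, a TGF-beta receptor (log2 0.46, SE 0.0827), Bmpr2, a BMP receptor (log2 0.38, SE 0.0641), and, lower, E2f3 (log2 -0.31, SE 0.0732). The lists overlap, and the cyclins stand in both. The median of the miR-17 list changed sign with the scaling of the arrays.

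In the Nodal pathway, which patterns the early embryo and is limited by the Lefty proteins, members moved in both directions. Lefty1, Lefty2 and Smad3 rose, while the ligand was slightly lower and Smad7 fell. Of 15 members tested, 5 were called higher and 3 lower. Nodal read 10.29 and 10.24 in the E1813Q arrays and 10.52 and 10.54 in the wild-type arrays (log2 -0.27, SE 0.0626, adjusted p = 0.00139). Smad3, which transmits the signal to the nucleus, read 9.68 and 9.65 against 8.70 and 8.76 (log2 0.93, SE 0.0846), and the receptor Acvr1b differed by 0.59 (SE 0.112). The receptor Acvr2a differed by -0.60 (SE 0.111), and Smad7, an inhibitory SMAD, read 10.47 and 10.29 against 11.07 and 11.06 (log2 -0.69, SE 0.0479). The coreceptor Tdgf1 differed by -0.01 and was not called. For each of the called members named here, the 2 groups of arrays did not overlap. The median of this list was 0.02 and changed sign with the scaling of the arrays.

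Among genes driven by ERK signalling, which pushes ES cells out of self-renewal, more were called lower than higher in E1813Q. Of 22 output and feedback genes, 2 were called higher and 11 lower, and their median was -0.29. With either of the E1813Q arrays left out, fewer were called higher, and without wild-type array 5 fewer were called lower. The median lay between -0.347 and -0.257 in these settings. Hbegf, an EGF-family ligand, read 9.72 and 9.87 against 11.15 and 11.07 (log2 -1.32, SE 0.0642, adjusted p = 2.09e-13). Dusp5, a nuclear ERK phosphatase, read 9.51 and 9.67 against 10.28 and 10.37 (log2 -0.73, SE 0.0681). The feedback inhibitors Spry4 and Spry2 differed by -0.60 (SE 0.073) and -0.53 (SE 0.0911). Srgn, Phlda1, Nab2 and Plaur, given above, are members of the same list. Dusp6, a cytoplasmic ERK phosphatase, differed by -0.21 and was not called, although it was called when only the 4 compared arrays were fitted (adjusted p = 0.00542). Etv1, an ETS factor, was higher by 0.73 (SE 0.0748).

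Of 16 immediate early genes, those that ERK induces first, 1 was called higher and 6 lower, with a median of -0.16. Fewer were called lower without E1813Q array 2, wild-type array 5 or wild-type array 6. The median lay between -0.264 and -0.148 with each of the 4 compared arrays left out in turn. Egr1 read 8.75 and 8.88 against 9.51 and 9.59 (log2 -0.74, SE 0.108), and Maff read 7.45 and 7.44 against 8.39 and 8.46 (log2 -0.98, SE 0.0917). Fosl2, an AP-1 subunit, differed by -0.80 (SE 0.0958), and Junb by -0.42 (SE 0.0734). Fos and Jun themselves differed by -0.15 and 0.05 and were not called. Ier3 was the member called higher (log2 0.38, SE 0.0858).

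Core pluripotency factors stayed at high levels with small differences. Of 27 pluripotency genes, 5 were called higher and 13 lower, with a median of -0.15. Pou5f1, the core factor OCT4, read 12.83 and 12.79 in the E1813Q arrays and 12.62 and 12.64 in the wild-type arrays (log2 0.18, SE 0.05), and Nanog read 12.80 in both E1813Q arrays and 12.96 in both wild-type arrays (log2 -0.16, SE 0.037). Sox2 differed by -0.04 and was not called. The larger falls were in Nr5a2, a nuclear receptor, at 10.05 and 10.11 against 10.89 and 10.99 (log2 -0.85, SE 0.0737), Fbxo15 (log2 -0.70, SE 0.0672), Tcl1, an AKT coactivator (log2 -0.47, SE 0.118), and Tbx3, a T-box factor (log2 -0.41, SE 0.0565). Utf1, a chromatin factor of ES cells, was higher by 0.52 (SE 0.0996).

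Of 19 genes of the primed epiblast and early ectoderm, 8 were called higher and 3 lower. The lower count was 1 without wild-type array 5 and 6 when only the 4 compared arrays were fitted. The epithelial keratin genes Krt18 and Krt8 read 12.12 and 12.17 against 10.87 and 10.91, and 12.56 and 12.46 against 11.59 and 11.56, rises of 1.26 (SE 0.0775) and 0.94 (SE 0.131). Fgf15, a secreted growth factor, differed by 0.95 (SE 0.112), and Sox11 by 0.64 (SE 0.112). Zic2, a zinc finger factor, read 9.66 and 9.13 against 10.26 and 10.21 and was lower by 0.84 on the log2 scale (log2 -0.84, SE 0.0949). Fgf5 and Otx2, which define the primed epiblast, differed by 0.07 and -0.17 and were not called. Otx2 was called when only the 4 compared arrays were fitted (adjusted p = 0.0264).

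Genes of the trophoblast, the outer lineage of the embryo, had the highest share of rises among the lists with at least 10 tested members. Of 12, 8 were called higher and 2 lower, and their median was 0.60. With the filter at the 50th percentile, 5 of 9 were higher and the median was 0.288. Fewer were called higher without E1813Q array 2 or wild-type array 6. With any of the 4 compared arrays left out, fewer were called lower, and the median lay between 0.538 and 0.631. Hand1, a factor of giant cells and mesoderm, read 9.10 and 9.17 against 7.84 and 7.95 (log2 1.24, SE 0.11, adjusted p = 4.47e-09). Ascl2, an imprinted factor of the ectoplacental cone, read 8.64 and 8.74 against 7.52 and 7.50 (log2 1.18, SE 0.149). Plac1 read 8.31 and 8.46 against 7.35 and 7.09 (log2 1.16, SE 0.176), and the keratin Krt7 differed by 0.93 (SE 0.0692). Each of these genes was higher in both E1813Q arrays than in both wild-type arrays. Among the factors that specify the lineage, Cdx2 read 7.59 and 7.85 against 7.19 and 7.15 (log2 0.56, SE 0.122), Eomes was lower, at 7.88 and 7.80 against 8.65 and 8.64 (log2 -0.80, SE 0.16), Gata3 and Tfap2c differed by 0.04 and -0.06 and were not called, and Elf5 and Tpbpa read below 6.44 in all 4 arrays. The part of a mixture of cell types in these values was not tested.

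Imprinted genes, which are expressed from 1 parental copy and include many regulators of fetal growth, were mostly higher. Of 21 tested, 12 were called higher and 3 lower, with a median of 0.33. Besides Igf2 and Ascl2, Nnat read 10.50 and 10.61 against 9.64 and 9.72 (log2 0.87, SE 0.0756), Peg3 read 12.22 and 12.30 against 11.54 and 11.50 (log2 0.75, SE 0.0513), and Cdkn1c, a cell cycle inhibitor that restrains growth, read 9.40 and 9.32 against 8.58 and 8.65 (log2 0.74, SE 0.0702). All 3 were separated from wild type by more than the spread within either group. Peg10, derived from a retrotransposon and needed for the placenta, differed by 0.64 (SE 0.0389). Igf2r, the receptor that clears IGF2, was lower (log2 -0.28, SE 0.0514), as were Slc22a18 (log2 -0.49, SE 0.0812) and Phlda2 (log2 -0.28, SE 0.0633). Dlk1, a growth regulator of another imprinted locus, differed by 0.22 and was not called.

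Germline genes were mostly lower, with 2 called higher and 8 lower of 15 and a median of -0.36. Dazl read 7.29 and 7.201 against 8.97 and 8.93 (log2 -1.70, SE 0.089, adjusted p = 6.34e-13), and the synaptonemal complex gene Sycp3 read 7.93 and 7.79 against 9.10 and 8.82 (log2 -1.10, SE 0.17). Tex19.1 differed by -1.11 (SE 0.0959) and Hormad1, a protein of meiotic chromosome axes, by -0.93 (SE 0.113). None of these overlapped between the groups. In the other direction, the X-linked homeobox genes Rhox9 and Rhox6 read 11.50 and 11.55 against 10.49 and 10.52, and 10.46 and 10.44 against 9.74 and 9.72, rises of 1.02 (SE 0.04) and 0.72 (SE 0.063).

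Among 23 genes of the miRNA machinery, 8 were called higher and 7 lower, the latter 4 without E1813Q array 1 or without wild-type array 5. Argonautes, which hold the mature miRNA, were higher for Ago1 (log2 0.43, SE 0.0715) and Ago2, which read 11.86 and 11.87 against 11.55 and 11.50 (log2 0.34, SE 0.0381). Tnrc6b, which links Argonaute to mRNA decay, rose by 0.48 (SE 0.052), and Tut4, which adds uridines to pre-let-7, by 0.48 (SE 0.1). The nuclear processing enzyme Drosha and the exporter Xpo5 differed by 0.09 and -0.14 and were not called.

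Of 16 genes of DNA methylation and its removal, 7 were called higher and 4 lower, beside 21.1% and 19.5% of all genes. The de novo methyltransferases Dnmt3a and Dnmt3b read 10.14 and 10.29 against 9.37 and 9.36, and 10.72 in both E1813Q arrays against 9.88 and 9.87, each a difference of 0.85 (SE 0.0751 and 0.124). Both stood clear of the wild-type arrays, while their cofactor Dnmt3l differed by 0.13 and was not called. Tet3, a methylcytosine oxidase, was higher by 0.54 (SE 0.106), and Tet2 was lower (log2 -0.34, SE 0.0732). Among 23 Polycomb genes, which encode complexes that silence developmental genes, 6 were called higher and 8 lower. Called falls included the core subunits Suz12, at 11.49 and 11.42 against 11.95 (log2 -0.49, SE 0.0467), and Rnf2, at 11.10 and 11.14 against 11.80 and 11.72 (log2 -0.64, SE 0.0597), and the accessory protein Mtf2 (log2 -0.64, SE 0.0872). Kdm2b, the catalytic subunit Ezh1 and Phc1 were higher by 0.69 (SE 0.103), 0.62 (SE 0.162) and 0.51 (SE 0.0638). Ring1 and Bmi1 differed by 0.11 and 0.15 and were not called. The count of lower Polycomb genes was 5 without E1813Q array 1 or without wild-type array 6.

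Genes of DNA replication were lower more often than higher. Of 24 E2F and replication genes, 2 were called higher and 11 lower, with a median of -0.14. Without E1813Q array 2 or without wild-type array 5, 1 was higher. Orc6, a subunit of the origin recognition complex, read 10.94 and 11.001 against 11.51 and 11.46 (log2 -0.52, SE 0.0528). Pcna, the sliding clamp, read 12.46 and 12.47 against 12.81 and 12.76 (log2 -0.32, SE 0.031), and Mcm5, a helicase subunit, differed by -0.32 (SE 0.0525). The groups were separate for all 3. Tk1, thymidine kinase, was higher by 0.46 (SE 0.0528). Of 24 G1-S genes, 6 were called higher and 5 lower, near the 21.1% and 19.5% of all genes. With Ccnd1, Ccnd2 and Cdkn1c, Cdk6, a partner of D cyclins, rose by 0.43 (SE 0.0483), while Ccne2, an E-type cyclin, was lower (log2 -0.53, SE 0.0854).

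Matrix and adhesion genes were higher for 10 and lower for 2 of 24, with a median of 0.17. With any of the 4 compared arrays left out, fewer were called in each direction, and the median lay between 0.14 and 0.169. Lama5, a laminin chain of basement membranes, read 10.99 and 11.02 against 10.01 and 10.05 (log2 0.98, SE 0.0527, adjusted p = 1.17e-12). The integrin subunits Itga3 and Itgb5 differed by 0.67 (SE 0.143) and 0.52 (SE 0.0591), and the collagen Col18a1 by 0.41 (SE 0.063). Of 21 SRF, YAP and smooth muscle genes, 6 were called higher and 6 lower, beside 21.1% and 19.5% of all genes. Acta2, smooth muscle actin, read 11.15 and 11.45 against 10.72 and 10.76 (log2 0.56, SE 0.116), and the receptor kinase Axl and the tropomyosin Tpm2 differed by 0.70 (SE 0.0677) and 0.68 (SE 0.0796). Srf, a transcription factor of actin genes, read 9.39 and 9.68 against 10.15 and 10.19 (log2 -0.64, SE 0.129), and Ccn2, a secreted matricellular protein, differed by -0.61 (SE 0.0622). Acta2 and Tpm2 thus rose while Srf fell. The median of this list was -0.06 beside 0.00845 for all genes, and changed sign under quantile normalisation.

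Glycolysis and hypoxia genes were called higher for 2 and lower for 12 of 22, with a median of -0.12. With E1813Q array 1 or wild-type array 6 left out, 0 were higher, and with E1813Q array 2 or wild-type array 5 left out, 1 was. The lower count fell to 8 without E1813Q array 1, E1813Q array 2 or wild-type array 6, and to 11 without wild-type array 5. The median lay between -0.138 and -0.106 in these settings. Pfkp, a phosphofructokinase, read 10.42 in both E1813Q arrays and 11.23 and 11.22 in the wild-type arrays (log2 -0.81, SE 0.122), and Ero1a, an oxidase of the endoplasmic reticulum, differed by -0.76 (SE 0.111). Pgk1, phosphoglycerate kinase, read 12.40 and 12.33 against 12.88 in both wild-type arrays (log2 -0.52, SE 0.0547). Ldha and Slc2a1 differed by 0.03 and 0.10 and were not called. Of 13 iron handling genes, 5 were called higher and 3 lower (1 lower without E1813Q array 1, wild-type array 5 or wild-type array 6), with Hmox1 the largest fall and the mitochondrial iron importer Slc25a37 higher by 0.44 (SE 0.0851). Of 18 genes of cholesterol and lipid synthesis, 7 were called higher and 2 lower. Without E1813Q array 2 or without wild-type array 6, 3 were higher. Fasn, fatty acid synthase, was higher by 0.41 (SE 0.0859), and Cyp51, a sterol demethylase, was lower (log2 -0.65, SE 0.108).

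**Figure D4:**
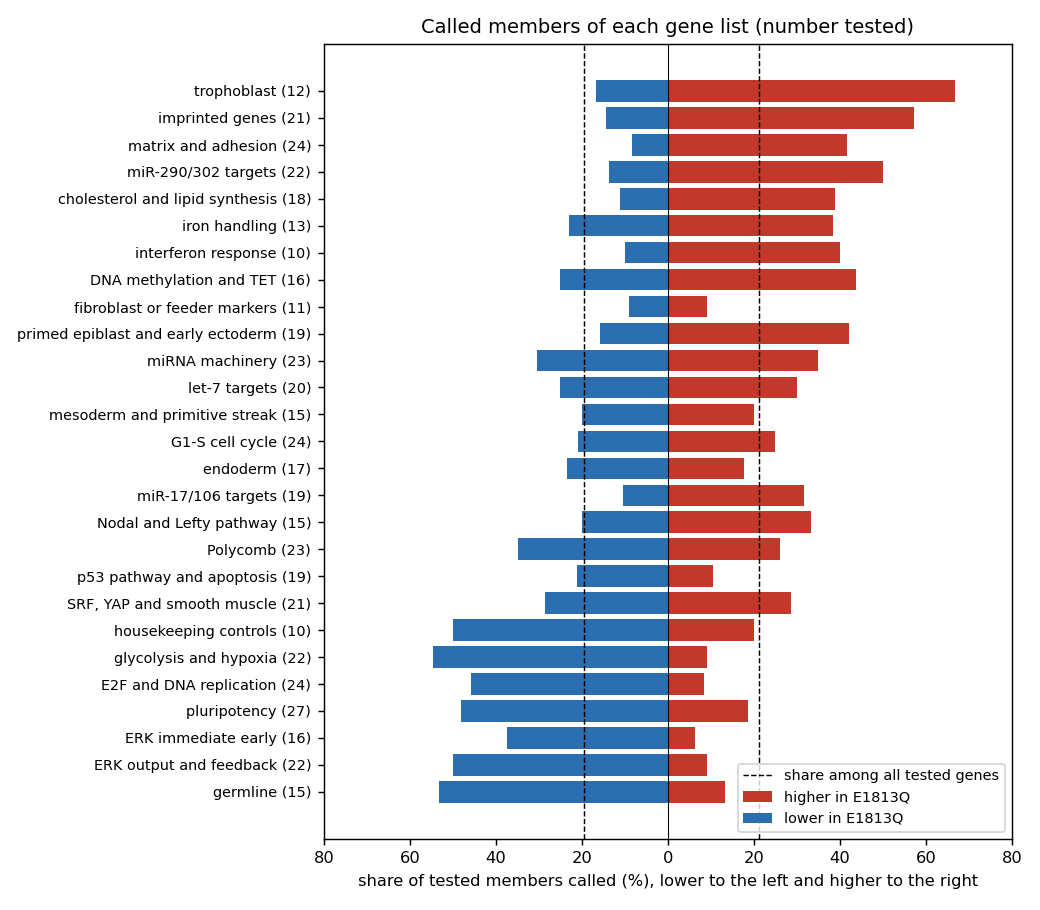
Share of the tested members of each gene list (number tested in brackets) called higher in E1813Q, to the right, or lower, to the left, in percent. Dashed lines mark the shares among all 13956 tested genes, 21.1% higher and 19.5% lower; the trophoblast list extends farthest to the right.

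To compare the mutants carried by the same vector, E1813Q was tested directly against D1709N, another substitution in the RNase IIIb domain. Of 13956 genes, 1525 were called (10.9%), with E1813Q higher for 680 (4.87%) and lower for 845 (6.05%). A difference of at least 2-fold was found for 3 genes (0.0215%), Pmp22, Lefty2 and the small nucleolar RNA Snora44, all higher in E1813Q. Snora44 lies outside the rule for named genes and was named after its values were seen. The balance was not stable: 501 genes were higher and 1059 lower with each array centred on its median, 915 and 901 after quantile normalisation, 540 and 393 without D1709N array 1, and 363 and 684 without D1709N array 2. The count was 931 when only the 4 arrays of the mutants were fitted and 3205 when the fourth arrays of D1709A and of wild-type ENvA were dropped. With a single array of either mutant left out, the count lay between 862 and 1047, so the size of this set rests on every array: it was 933 without D1709N array 1, 927 without E1813Q array 1 and 862 without E1813Q array 2.

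Lefty2 read 8.93 and 8.94 in the E1813Q arrays, 7.72 and 7.90 in the D1709N arrays and 7.78 and 7.63 in the wild-type arrays. It was thus higher in E1813Q than in D1709N (log2 1.13, SE 0.0944, adjusted p = 3.85e-08, limma), whereas Lefty1 differed by 0.36 between the mutants and was not called (adjusted p = 0.161), although it was when only the 4 arrays of the mutants were fitted (adjusted p = 0.00426). Pmp22 read 12.13 and 12.16 against 11.12 and 10.87 in D1709N (log2 1.15, SE 0.232, adjusted p = 0.00242). Csf1 read 9.28 in both E1813Q arrays and 8.42 and 8.29 in D1709N (log2 0.93, SE 0.104). In these genes E1813Q stood apart from both D1709N and wild type. Car4, a membrane carbonic anhydrase, showed the same order, with 10.74 and 10.82 in E1813Q, 9.90 and 9.89 in D1709N and 9.62 and 9.71 in wild type (log2 0.89, SE 0.168, against D1709N).

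For each of the 6 genes ranked most below D1709N in E1813Q, both D1709N arrays read above both wild-type arrays. Chac1, which degrades glutathione, read 8.70 and 8.98 in E1813Q, 9.96 and 9.71 in D1709N and 8.44 and 8.57 in wild type (log2 -0.99, SE 0.0847, against D1709N). Cth, an enzyme of cysteine synthesis, read 11.36 and 11.29, 12.17 and 12.03, and 11.23 and 11.19 in the same order (log2 -0.77, SE 0.0559). Aldh18a1, of proline synthesis, read 10.72 and 10.67, 11.46 and 11.43, and 10.68 and 10.69 (log2 -0.75, SE 0.0664). For all 3, both D1709N arrays lay above every other array of the vector. E1813Q was itself called above wild type for Chac1 (log2 0.34) and not for Cth or Aldh18a1. Nupr1, a stress-induced nuclear protein, differed by -0.76 (SE 0.0663). Mthfd2, a mitochondrial enzyme of the folate cycle, was below both others, with 10.27 and 10.47 in E1813Q, 11.29 and 11.28 in D1709N and 10.78 in both wild-type arrays (log2 -0.92, SE 0.129, against D1709N).

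**Figure D5:**
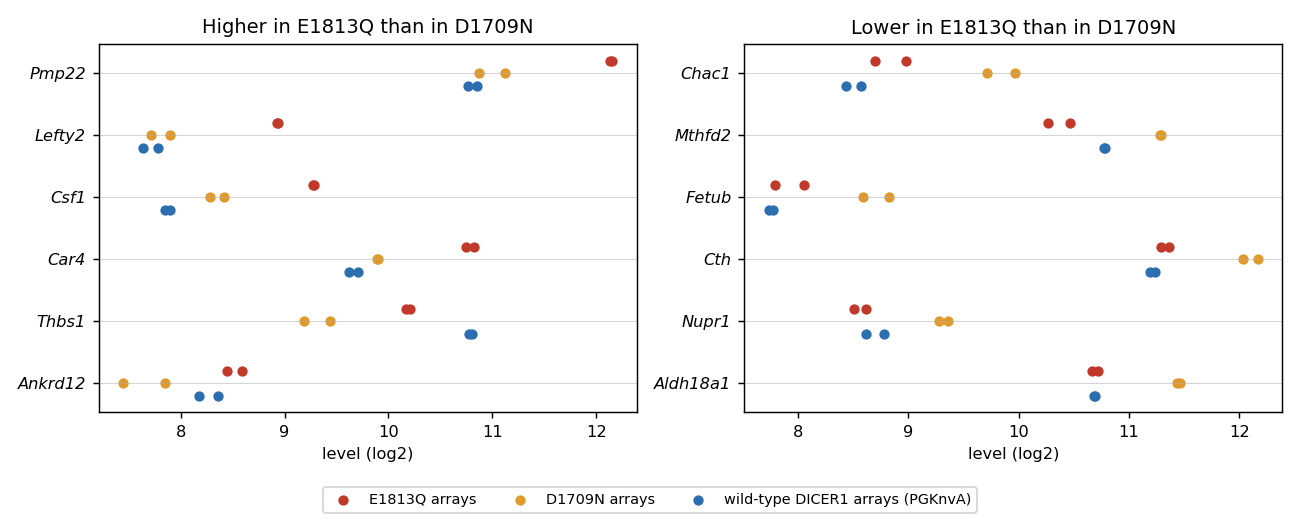
Log2 levels of the 6 genes most above (left) and the 6 most below (right) D1709N in E1813Q. Red dots are E1813Q arrays, orange dots D1709N arrays and blue dots wild-type PGKnvA arrays; red dots and orange dots do not overlap in any row.

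By list, the direct comparison called 9 of 24 E2F and replication genes lower in E1813Q than in D1709N and 0 higher, against 6.05% and 4.87% of all genes. The lists given here were the most one-sided of those examined, and their counts against D1709N were not run in other settings. Mcm5 read 11.51 and 11.45 against 11.71 and 11.78 in D1709N (log2 -0.27). Among SRF, YAP and smooth muscle genes, 8 of 21 were called higher in E1813Q than in D1709N and 0 lower. Acta2 differed by 0.73 (SE 0.116) between the mutants, and Ccn1, a secreted YAP target, read 11.53 and 11.45 in E1813Q, 10.78 and 10.65 in D1709N and 11.84 and 11.81 in wild type, a difference of 0.78 (SE 0.0738) between the mutants. Among the D-type cyclins, Ccnd2 was lower in E1813Q than in D1709N, at 9.22 and 9.27 against 10.04 and 9.88 (log2 -0.71, SE 0.138). Rhox9 was higher, at 11.50 and 11.55 against 11.01 in both D1709N arrays (log2 0.51, SE 0.04). For Mir302b and Mir20a the mutants differed by 0.02 and -0.06 and were not called.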

How the data were processed

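Total RNA of each sample was measured on Affymetrix Mouse Gene ST arrays. The authors deposited 1 log2 value for each probe set and array. RMA and Partek 6.6 are named in the submitters' processing notes, without settings in the sources used here. Of 35556 probe sets, 21789 had 1 gene symbol, 1621 several and 12146 none. Each of 19938 symbols was represented by its highest probe set, and symbols with a mean over the 28 arrays below the 30th percentile (6.42) were left out, leaving 13956 genes. Of these, 13915 matched the GRCm38.p6 gene table and 0 had another symbol there.

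All 28 arrays entered 1 model in limma 3.58.1 (R 4.3.3) with a coefficient for each of 10 groups and a trend of variance with level. Two-sided p-values had Benjamini-Hochberg adjustment over the tested genes and a threshold of 0.05, and each SE is that of the model. It has 18 residual degrees of freedom, but exact relations in the deposited values leave 16 free directions, so p-values are approximate. The number of arrays limits the precision. On simulated data with independent noise, the procedure recovered 36% of 50 genes changed by 0.25 log2 and 80% of 50 changed by 0.5. It recovered 100% at 1 and at 2, with 8 false calls among the genes left unchanged. A gene not called may therefore still differ by a small amount. Far fewer genes were changed in the simulation than the 5661 called in the data, so its rates may not hold there. Hairpin probe sets were fitted without the filter, and 271 of 296 matched the RefSeq sequence table. Figures were drawn with matplotlib 3.10.9.

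Members, lists and tests were chosen with earlier results of these data known. Named genes are Dicer1, the 12 largest called rises and falls, up to 4 called members of each list in each direction, and the 6 largest called differences each way against D1709N. Predicted, miRNA, snoRNA and receptor segment genes were left out of the ranked parts, and uncalled list members may be named with values. Lin28b, Nras, Hbegf, Dusp5, Spry4, Spry2, Junb, Pou5f1, Nanog, Sox11, Peg10, Ago2, Pcna, Ccn1, Snora44 and Mir17hg lie outside this rule and were chosen after their values were seen, as were the genes of the list comparison with D1709N. Gene coordinates and regulatory sequences were not used here. Alternatives covered the arrays fitted, the controls, scaling, filter, variance model, probe set choice, pairing and leaving out each array.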

Additional observations from a re-analysis of the deposited data

Results flagged for a closer look

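The direct comparison of E1813Q with D1709N, both in the PGKnvA vector and both set against the same wild-type arrays, flagged genes whose response differed between the mutants by limma's test of the difference. Higher in E1813Q than in D1709N, as log2 differences, were Pmp22 (1.15), Lefty2 (1.13), Csf1 (0.93), Car4 (0.89), Thbs1 (0.88) and Ankrd12 (0.87). Thbs1, the matrix glycoprotein thrombospondin, read 10.21 and 10.17 in E1813Q, 9.44 and 9.19 in D1709N and 10.81 and 10.78 in wild type, so E1813Q lay between the others. Its call against D1709N had an adjusted p of 0.0161 with limma, which became 0.116 without D1709N array 2, 0.0822 without E1813Q array 1 and 0.0694 without E1813Q array 2. Ankrd12 read 8.45 and 8.59 in E1813Q, 7.85 and 7.45 in D1709N and 8.36 and 8.18 in wild type, and its adjusted p of 0.00729 became 0.103 without D1709N array 2 and 0.0644 without E1813Q array 2.

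Lower in E1813Q than in D1709N were Chac1 (-0.99), Mthfd2 (-0.92), Fetub (-0.78), Cth (-0.77), Nupr1 (-0.76) and Aldh18a1 (-0.75). Fetub, a secreted protease inhibitor, read 7.80 and 8.06 in E1813Q, 8.83 and 8.59 in D1709N and 7.74 and 7.77 in wild type, and its adjusted p of 0.0161 became 0.130 without D1709N array 1 and 0.134 without E1813Q array 1. For 9 of the 12 genes the call held in every one of the 15 alternative settings run.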

How the results depend on the processing

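Between E1813Q and wild type the count of 5661 genes stayed within 1.5 times, from 4193 without wild-type array 5 to 7105 with all 6 wild-type arrays as 1 group, and the count of at least 2-fold from 101 to 132. Robustness was followed for 190 genes and hairpins, of which 171 were genes chosen by the rule for named genes. The rest were hairpins taken from those called. Of the 190, 0 reversed in any setting. With only the 6 PGKnvA arrays fitted, 7 lost their call, as did 7 under quantile normalisation and 6 with arrays centred on their median. More lost it with a single array left out. No paired analysis was possible because E1813Q and wild type share no replicate numbers. Between E1813Q and D1709N, 1525 genes were called. The count was 931 with only the 4 arrays compared, 3205 when the fourth arrays of D1709A and of wild-type ENvA were dropped, and 862 to 1047 with a single array left out, where the count of at least 2-fold was 3 to 5. With the replicate block it was 1573. The pairing is by number alone, and the deviations of same-numbered arrays had a correlation of -0.016 across genes. Genes named outside the rule kept their call in every setting where they had one. Of named genes with no call, Dusp6, Fos, Otx2, Dlk1, Xpo5, Dnmt3l, Slc2a1, Mdm2, Actb and, against D1709N, Lefty1 were called in at least 1 setting. Values with no call that changed sign with a single array left out ranged from -0.07399 to 0.01851 for Rbl2, -0.0274 to 0.0054 for Tdgf1, -0.2938 to 0.00331 for Fos, -0.04506 to 0.1868 for Fgf5, -0.006915 to 0.08855 for Gata3 and -0.04825 to 0.3408 for Bmi1. The cause was not tested. The deposited table gives no background level, which limits what can be said of low probe sets, including most hairpins.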

Other observations

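Several lists that carried no clear direction are given here, beside 21.1% of all genes called higher and 19.5% lower. Of 15 mesoderm and primitive streak genes, 3 were called higher and 3 lower (1 lower without E1813Q array 1, E1813Q array 2 or wild-type array 6), with Hand1, Cdx2 and Eomes described above. Bmp4, a BMP ligand, was lower (log2 -0.81, SE 0.284, adjusted p = 0.0246, limma), a call that was lost with any of the 4 compared arrays left out (adjusted p between 0.0602 and 0.121). Of 17 endoderm genes, 3 were called higher and 4 lower with limma. Gata6, a factor of primitive endoderm, read 7.23 and 7.27 in the E1813Q arrays and 8.19 and 8.23 in the wild-type arrays (log2 -0.96, SE 0.0899), while Lrp2, an endocytic receptor, read 9.47 and 9.51 against 8.49 and 8.40 (log2 1.05, SE 0.276). The median of the endoderm list changed sign with the scaling of the arrays. Of 10 interferon response genes, 4 were called higher and 1 lower. Stat2, which transmits the interferon signal, read 8.87 and 8.92 against 8.19 and 8.09 (log2 0.76, SE 0.0843), and Bst2 was lower (log2 -0.46, SE 0.0743).

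Of 19 p53 pathway and apoptosis genes, 2 were called higher and 4 lower, beside 21.1% and 19.5% of all genes. The lower count was 1 without E1813Q array 1 and 2 without any other of the 4 compared arrays, and the higher count was 0 without wild-type array 5 and 1 without E1813Q array 2 or wild-type array 6. Mdm2, a target and inhibitor of p53, differed by -0.23 and was not called. Trp53inp1 was lower, at 11.69 and 11.67 against 11.94 and 11.93 (log2 -0.25, SE 0.0364). Of 10 genes often used as housekeeping controls, 2 were called higher and 5 lower, and the lower count was 3 with any of the 4 compared arrays left out. Actb and Ppia differed by 0.07 and 0.05 and were not called, whereas Tbp differed by -0.33 (SE 0.0423), Hprt by -0.34 (SE 0.062) and Gusb by 0.60 (SE 0.0742). Of 12 two-cell-stage genes, 5 had a probe set with a single symbol and 1 of these lay above the level of 6.42, Eif1a, which read 10.74 and 10.72 against 11.24 and 11.16 (log2 -0.47, SE 0.0381). Of 11 fibroblast or feeder genes tested, 1 was called higher, Acta2, and 1 lower, Twist1.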
